A study of Homo sapiens with 26 samples.

Results

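KYSE150 is an established cell line from an esophageal squamous cell carcinoma, and the experiment described here forced it to express the bromodomain protein BRDT. The 6 RNA-seq libraries that make it up, 3 labelled BRDT overexpression (BRDT-OE) and 3 labelled Control, were taken by their labels from a series of 26 libraries. According to the methods of the study, a BRDT plasmid or a control vector was brought into the cells by electroporation. The interval between electroporation and lysis is not given in the sources used here, nor is any selection for transfected cells. The other 20 libraries came from siRNA knockdowns in KYSE150, KYSE180 and TE6 cells, of which the 6 of the BRDT knockdown in KYSE180 and the 4 of that in TE6 were used for comparison. The 2 control libraries of the TP63 knockdown in KYSE180 were used only for the level of BRDT. All libraries were made from bulk RNA, so fewer cells that express a gene and less of its RNA per cell could not be told apart. The labels do not say whether replicates were separate cultures, so that p-values measure the spread between these libraries, which may be technical.

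BRDT belongs to the BET family, whose members carry paired bromodomains that read acetylated lysines on histone tails and help to bring the elongation factor P-TEFb to genes. Its relatives in the family, BRD2 and BRD3 among them, are made in most cells, whereas BRDT is normally restricted to male germ cells, where it acts during meiosis and chromatin compaction. In squamous epithelium the transcription factor p63, encoded by TP63, maintains the basal cell programme of keratins, desmosomes and hemidesmosomes. Tumour cells can also run the interferon programme at a low constant level: signalling through transcription factors such as STAT2 and IRF9 drives a set of antiviral effector genes and the machinery of antigen presentation by MHC class I.

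Expression is given as the authors' normalised read count, which is the number of reads on a gene divided by a size factor of the library. The libraries held 11523878 to 19372441 reads on genes, and 1 read was worth 0.846 to 1.41 normalised counts. Among libraries of the same group the log2 values correlated at 0.987 to 0.996 (6 pairs), and between groups at 0.96 to 0.973 (9 pairs). The first principal component held 77.7% of the variance and separated the groups. Of 26485 genes in the table, the 12765 with a mean normalised count of at least 10 over the 6 libraries were tested with limma on log2(value + 1). A gene was called up or down at an adjusted p (Benjamini-Hochberg over all 12765) below 0.05 and a log2 change, up or down, no smaller than 0.5, and fold changes are BRDT-OE over control throughout.

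Forced BRDT expression was reached in every labelled library. BRDT gave 8.13, 16 and 6.58 normalised counts in the control libraries and 15871, 15927 and 17542 in the BRDT-OE libraries. This was a log2 fold change of 10.60 (adjusted p = 3.41e-09). The control values rested on 6 to 17 reads, against 12475 to 18833 reads after transfection. BRDT lies at chr1:91949343-92014426 on the plus strand (GRCh38), and reads of the plasmid and of the endogenous gene cannot be told apart in these counts. Scaled to the total reads of each library as RPM, BRDT reached 1011 ± 61.8 RPM (SD, n = 3) in BRDT-OE cells. This was 10.5 times the level in KYSE180 cells treated with control siRNA in the BRDT knockdown (95.9 ± 6.41, n = 3). It was 47.3 times that in TE6 cells (21.4, n = 2), and both lines express the gene on their own. In the TP63 knockdown, KYSE180 cells with control siRNA had only 48.5 ± 4.03 RPM (n = 2). The level of 1 line thus differed between experiments, and ratios across experiments are approximate. Scaled per kilobase of transcript, BRDT was 7.66 times as abundant as BRD2 and 46.7 times as abundant as BRD3 in the BRDT-OE libraries, so it was the leading transcript of the 3.

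**Figure D1:**
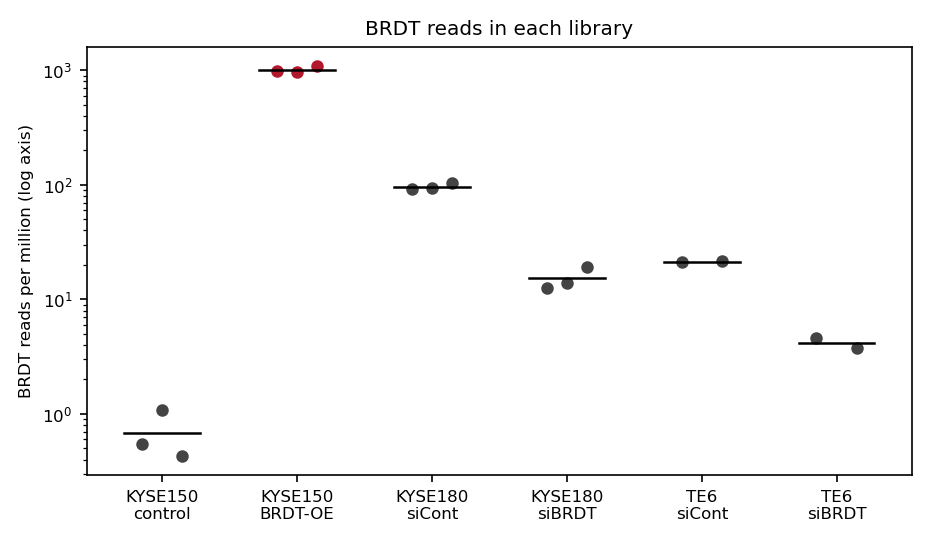
BRDT level in RPM (log axis) in each library of the KYSE150 overexpression experiment and of the BRDT knockdowns in KYSE180 and TE6 cells, 1 point per library. The 3 BRDT-OE libraries stand above every other library, while the KYSE150 control libraries lie below all KYSE180 and TE6 libraries.

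Across the transcriptome 1343 genes were called up (10.5% of those tested) and 2043 were called down (16%), and these shares are the background for every gene list below. The median log2 fold change of all tested genes was 0.02. Libraries of the 2 groups did not overlap for 7686 genes (60.2%), so that a lack of overlap by itself did not mark a gene as unusual. The balance of directions depended on the scaling. Genes that fell made up 60.3% of the calls on the values as deposited, 71.6% after the upper quartiles were made equal (966 up, 2430 down) and 49.3% after the dependence of fold change on gene length and GC content was removed (1719 up, 1669 down). Equal upper quartiles moved the median of all genes to -0.06 and this correction moved it to 0.07.

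**Figure D2:**
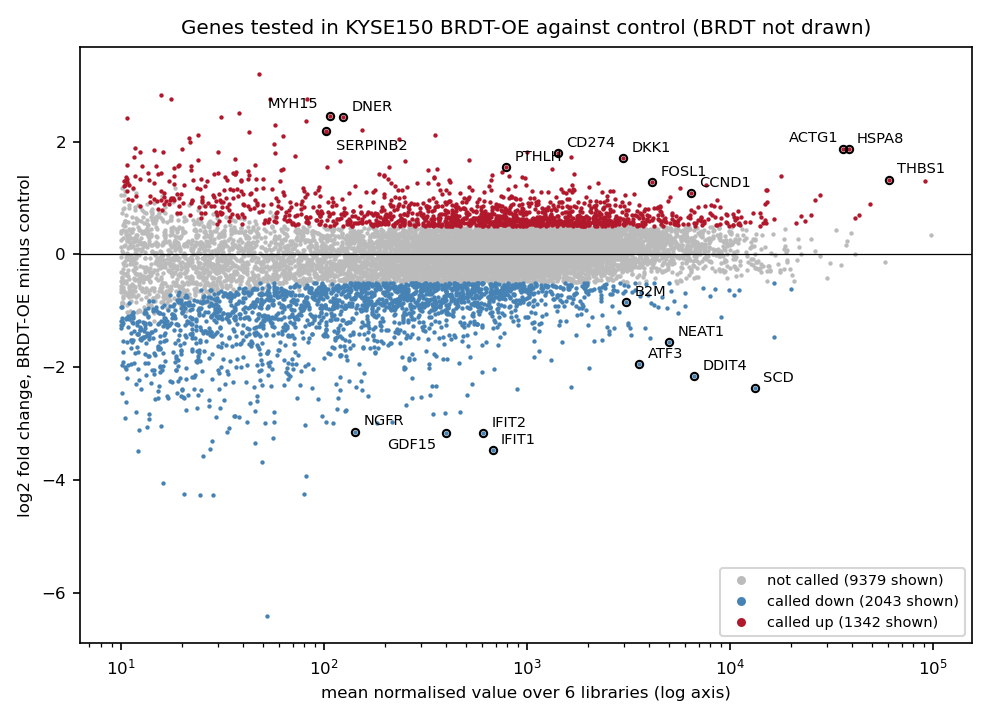
Log2 fold change of BRDT-OE over control against the mean normalised count (log axis) for the 12765 tested genes, 1 point per gene, with genes called up in red, genes called down in blue and the others in grey. BRDT itself is left out of the drawing, and among the labelled genes IFIT1 and IFIT2 lie lowest and MYH15 and DNER highest.

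The other BET genes and the P-TEFb machinery were mostly not called. BRD2 gave 4073, 4335 and 3318 against 3524, 3654 and 3424 normalised counts in the control and BRDT-OE libraries, respectively, and BRD3 gave 660, 716 and 483 against 573, 507 and 539. Neither passed the test, with adjusted p = 0.255 and 0.274. Of 21 genes for BET proteins, P-TEFb and its regulators, 1 was called up, MEPCE (log2 fold change 0.68), which caps the inhibitory 7SK RNA. HEXIM2, an inhibitor of P-TEFb that acts with 7SK, was the 1 called down, at -0.77, and was no longer called once the dependence of fold change on gene length and GC content was removed (-0.49).

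Genes are named by the size of their change, or, within a list, also for their role, in which case they were chosen after their values were seen, and a single value beside a gene is its log2 fold change unless another unit is named. The largest rises among genes with a mean of at least 100 normalised counts covered several functions. MYH15 gave 25.3, 34.9 and 38.4 normalised counts in the control libraries and 174, 195 and 179 in the BRDT-OE libraries (log2 fold change 2.46 ± 0.175 SE, adjusted p = 5.56e-06). DNER stood at 35.2, 34.9 and 43.8 in controls and at 218, 236 and 176 after BRDT transfection (log2 fold change 2.43 ± 0.163 SE, adjusted p = 4.21e-06). The values of SERPINB2 were 28.9, 45.3 and 32.9 without and 149, 225 and 131 with BRDT overexpression (log2 fold change 2.19 ± 0.23 SE, adjusted p = 4.07e-05). SERPINB2 is an inhibitor of urokinase, DNER is a transmembrane ligand of Notch type, and MYH15 is a myosin heavy chain. FLG gave 31.6, 58.5 and 25.2 normalised counts in the control libraries and 143, 173 and 183 in the BRDT-OE libraries (log2 fold change 2.16 ± 0.265 SE, adjusted p = 0.000105). FLG encodes filaggrin, a structural protein of the cornified layer. The gene for the immune checkpoint ligand PD-L1 rose as well. CD274 stood at 613, 735 and 568 in controls and at 2126, 2363 and 2139 after BRDT transfection (log2 fold change 1.80 ± 0.0987 SE, adjusted p = 1.81e-06). A lack of overlap between the groups was a condition for naming the largest rises and falls, so it is no separate support for them. It held for 3348 of all 3386 called genes, and for every called gene whose 6 values are given here. Abundant transcripts were among the largest rises too. The values of ACTG1 were 14689, 14598 and 17138 without and 56893, 57072 and 56150 with BRDT overexpression (log2 fold change 1.88 ± 0.0855 SE, adjusted p = 6.49e-07). HSPA8 gave 13982, 18000 and 17914 normalised counts in the control libraries and 58903, 62092 and 59518 in the BRDT-OE libraries (log2 fold change 1.86 ± 0.105 SE, adjusted p = 1.84e-06). ACTG1 encodes cytoplasmic gamma-actin and HSPA8 the constitutive HSC70 chaperone. The other genes among the 12 largest rises were DOK3 (2.21), IGFN1 (2.11), ADAMTS6 (2.04), GLIPR1 (1.82) and DCBLD2 (1.73), each a log2 fold change.

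Of the 12 largest falls, 4 were in interferon-stimulated genes, IFIT1, IFIT2, DDX60 and OASL. IFIT1 stood at 1419, 1112 and 1192 in controls and at 154, 92.2 and 95.6 after BRDT transfection (log2 fold change -3.47 ± 0.179 SE, adjusted p = 1.33e-06). The values of IFIT2 were 1408, 901 and 970 without and 133, 117 and 107 with BRDT overexpression (log2 fold change -3.17 ± 0.158 SE, adjusted p = 1.13e-06). GDF15 gave 753, 653 and 745 normalised counts in the control libraries and 92.9, 67.7 and 78.7 in the BRDT-OE libraries (log2 fold change -3.16 ± 0.128 SE, adjusted p = 3.66e-07). IFIT1 and IFIT2 bind foreign RNA and curb its translation, and GDF15 is a stress-induced cytokine. IFIT1 and IFIT2 overlap LIPA on the opposite strand, and since the library kit does not record strand, reads of these genes cannot be separated there. NGFR stood at 321, 214 and 238 in controls and at 31.8, 22 and 30.9 after BRDT transfection (log2 fold change -3.14 ± 0.197 SE, adjusted p = 3.14e-06). NGFR encodes the p75 neurotrophin receptor, which marks basal cells of the esophagus. Falls of comparable size were measured for HCAR2 (-2.98), ALDH3B2 (-2.98), LRG1 (-2.97), DDX60 (-2.97), DHRS3 (-2.82), OASL (-2.81), MEGF6 (-2.79) and MYLIP (-2.78), again as log2 fold changes. All 24 of these largest changes were called under each of the 18 alternative analyses. They had been chosen for the size of their change, so this outcome was likely beforehand and says little about smaller changes. Of all 3386 called genes, 580 were called under each of the 18 alternatives, among them a stricter fold limit.

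Of the 36 gene lists examined, the interferon effectors had the lowest median. Of 42 listed genes, 33 were expressed enough to be tested, 22 were called down, none up, and 11 were not called, with a median log2 fold change of -1.04. The count called down was 18 to 21 when any single library was left out. The values of HERC5 were 76.8, 49 and 59.2 without and 6.88, 5.07 and 7.03 with BRDT overexpression (log2 fold change -3.08 ± 0.269 SE, adjusted p = 1.55e-05). RSAD2 gave 203, 112 and 117 normalised counts in the control libraries and 22.4, 10.1 and 18.3 in the BRDT-OE libraries (log2 fold change -3.03 ± 0.306 SE, adjusted p = 3.36e-05). ISG15 stood at 1321, 945 and 1365 in controls and at 567, 551 and 569 after BRDT transfection (log2 fold change -1.09 ± 0.125 SE, adjusted p = 7.41e-05). HERC5 is the ligase that attaches the ubiquitin-like protein ISG15 to targets, and RSAD2 encodes viperin, which makes a chain-terminating nucleotide. Members of the membrane-bound IFITM family also fell, IFITM1 by a log2 fold change of -1.92, IFITM2 of -2.25 and IFITM3 of -1.49. These paralogs are alike in sequence, and how reads common to them were counted is not given in the sources used here. The values of OAS1 were 66, 33 and 55.9 without and 6.88, 13.5 and 7.03 with BRDT overexpression (log2 fold change -2.38 ± 0.341 SE, adjusted p = 0.000272). OAS1 is a synthetase that activates RNase L. Among the effectors that were not called, SP110 stood at a log2 fold change of -0.35 and OAS3 at 0.24, so the decrease did not extend to every member of the list.

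Promoter sequence was read for these effectors to show the element through which this programme is known to be driven. The interferon-stimulated response element, bound by a complex that contains STAT2 and IRF9, contains repeated GAAA blocks, and a pair of these blocks with any 2 bases between them was searched on both strands of the 300 bases from 250 before to 50 after each RefSeq transcription start (GRCh38.p14). It is printed in capitals for the 3 effectors with the largest falls among those with a matched promoter that held it. Its presence in them was therefore a condition of the choice, and IFIT2 (-3.17) was not among those effectors. In each of the 3 it lies on the minus strand and so reads as paired TTTC blocks.
IFIT1, chr10:89392373-89392672, plus strand: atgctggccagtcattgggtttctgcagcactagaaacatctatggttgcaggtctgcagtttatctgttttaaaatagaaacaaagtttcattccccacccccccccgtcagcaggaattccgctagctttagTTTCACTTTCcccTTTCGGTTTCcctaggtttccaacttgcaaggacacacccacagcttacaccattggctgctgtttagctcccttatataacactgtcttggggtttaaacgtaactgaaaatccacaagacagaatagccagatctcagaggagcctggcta
HERC5, chr4:88456869-88457168, plus strand: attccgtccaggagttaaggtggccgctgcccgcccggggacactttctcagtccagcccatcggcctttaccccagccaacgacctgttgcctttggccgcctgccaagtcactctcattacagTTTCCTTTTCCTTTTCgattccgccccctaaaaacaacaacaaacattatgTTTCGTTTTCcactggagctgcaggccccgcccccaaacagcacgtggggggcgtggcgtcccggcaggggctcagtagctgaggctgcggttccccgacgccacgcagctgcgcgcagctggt
RSAD2, chr2:6877527-6877826, plus strand: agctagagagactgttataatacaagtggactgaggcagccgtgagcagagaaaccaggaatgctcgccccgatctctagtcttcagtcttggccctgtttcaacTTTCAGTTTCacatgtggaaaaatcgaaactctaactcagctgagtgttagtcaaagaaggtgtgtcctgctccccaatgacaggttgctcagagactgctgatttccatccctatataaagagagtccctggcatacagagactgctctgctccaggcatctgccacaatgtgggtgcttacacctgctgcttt
The first match begins 116 bases before the start in IFIT1, 125 in HERC5 and 145 in RSAD2, and the 3 promoters hold 2, 3 and 1 matches. RefSeq promoters were matched for 18 of the 22 effectors called down, and 18 of their 25 promoters held the element (72%). For 10 of the 11 effectors that were tested and not called, 10 of 13 promoters held it (76.9%). It occurred in 1255 of all 35116 RefSeq promoters (3.57%). TGANTCA, the letters bound by AP-1 factors, was present in 1 of the 25 promoters of effectors called down (4%), in 2 of the 13 of effectors not called (15.4%) and in 7.71% of all promoters. A match is a description of the sequence and was not tested as a binding site. For all called genes together, fewer than 80% of symbols matched a RefSeq promoter (1038 of 1343 and 1486 of 2043), so no share is given for them.

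**Figure D3:**
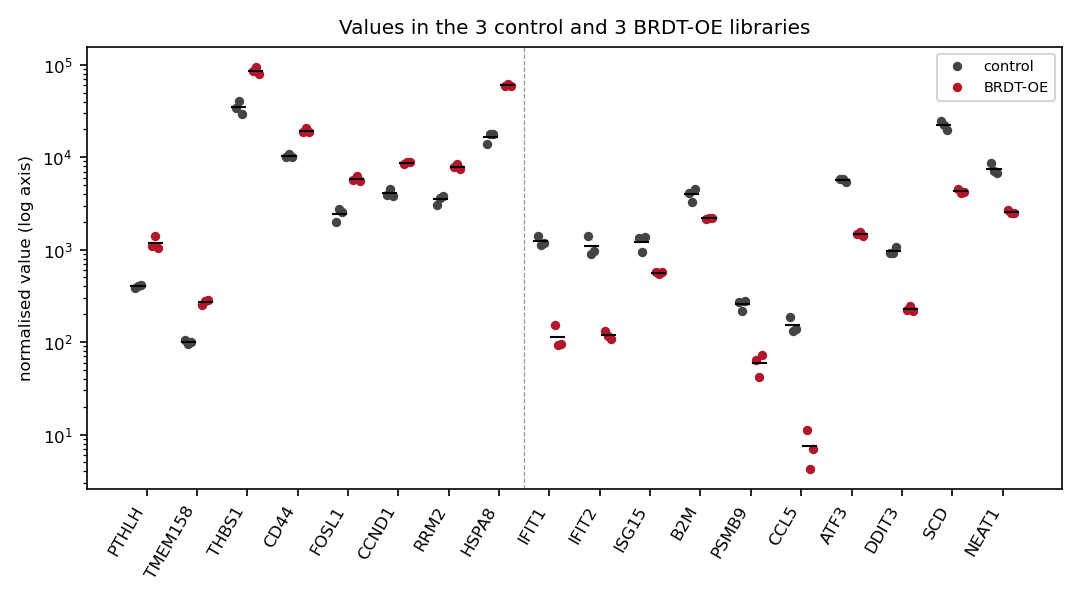
Normalised read counts (log axis) of 8 genes called up and 10 genes called down, 1 point per library, with control and BRDT-OE libraries side by side and a black bar at each mean. No gene shown has overlapping groups. For most genes the 3 libraries of a group lie close together compared with the distance between the groups. For ISG15 and B2M the spread of the control libraries is of similar size to the gap between the groups.

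Upstream parts of the interferon pathway held calls in both directions. Among 17 tested nucleic acid sensors and adaptors, 5 were called down and 1 up. Those that fell included the RNA helicases DHX58 (-2.05) and IFIH1 (-1.40), the DNA sensor IFI16 (-1.16) and the adaptor STING, listed as TMEM173 (-1.35). SAMHD1, a nuclease that hydrolyses dNTPs, was called up at 0.58 and was not called with equal upper quartiles (0.50). Of 25 interferon ligands, receptors, STATs and IRFs, 17 were tested, and the ligands, IFNB1 and the lambda interferons IFNL1, IFNL2 and IFNL3 among them, were below the expression filter in these libraries. IRF9 gave 529, 384 and 534 normalised counts in the control libraries and 183, 151 and 170 in the BRDT-OE libraries (log2 fold change -1.50 ± 0.139 SE, adjusted p = 2.08e-05). It is a DNA-binding partner of STAT2. IRF1 stood at 875, 720 and 765 in controls and at 390, 405 and 335 after BRDT transfection (log2 fold change -1.06 ± 0.104 SE, adjusted p = 2.84e-05). IRF1 is itself an inducible activator of MHC class I genes. STAT2 (-0.40) and IRF7 (-0.50) were not called, but both were called down without control library 3, at -0.52 and -1.12. SOCS3 (-1.20), IL10RB (-0.72) and IRF2 (-0.70) were the further falls, and the receptor chain IFNAR1 was the only rise (0.55), which was lost with equal upper quartiles (0.47) and with the length and GC dependence removed (0.50).

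Most genes of antigen presentation by MHC class I fell, with 13 of 18 tested genes called down and none up (median log2 fold change -0.77). The values of B2M were 4150, 3263 and 4537 without and 2166, 2188 and 2219 with BRDT overexpression (log2 fold change -0.85 ± 0.107 SE, adjusted p = 0.000128). B2M encodes the invariant light chain of the complex. Among heavy chain genes HLA-B, HLA-C, HLA-E and HLA-F were each called down, by log2 fold changes of -0.79, -0.72, -0.93 and -1.38 (HLA-C not with the length and GC dependence removed, -0.43), and reads can be divided wrongly between such similar genes. PSMB9 gave 273, 216 and 280 normalised counts in the control libraries and 64.5, 42.3 and 73.1 in the BRDT-OE libraries (log2 fold change -2.10 ± 0.198 SE, adjusted p = 2.29e-05). PSMB9 is a catalytic subunit of the immunoproteasome, and its partner PSMB8 fell by 1.03 on the log2 scale. The peptide transporter subunit TAP1 stood at -0.94, whereas TAP2 stood at 0.42 and was not called. NLRC5, the transactivator of class I genes, was not called either, its change being under the fold limit (-0.30, adjusted p = 0.0191). PSMB9, PSMB8 and TAP1 lie beside each other and overlap on opposite strands (GENCODE 44), so part of their reads may belong to a neighbour.

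Cytokines and chemokines linked to NF-kB were called down in 14 of 23 tested genes and up in 1 (median log2 fold change -0.70). CSF1 stood at 669, 613 and 531 in controls and at 236, 222 and 211 after BRDT transfection (log2 fold change -1.43 ± 0.105 SE, adjusted p = 6.30e-06). The values of IL6 were 500, 760 and 637 without and 311, 366 and 291 with BRDT overexpression (log2 fold change -0.95 ± 0.146 SE, adjusted p = 0.000416). CSF1 sustains macrophages and IL6 signals through STAT3. IL1B (-0.75), IL1A (-0.68), BIRC3 (-1.16) and NFKB2 (-0.70) were also called down, NFKB2 not once the length and GC dependence was removed (-0.49). IL11, a cytokine of the IL6 family, was the 1 gene called up. IL11 gave 265, 244 and 278 normalised counts in the control libraries and 524, 585 and 574 in the BRDT-OE libraries (log2 fold change 1.09 ± 0.0919 SE, adjusted p = 1.27e-05). The neutrophil chemokine CXCL8 was not called (0.31, adjusted p = 0.199), and the same held for NFKB1 (0.33). Immediate early genes had more falls than rises, with 10 of 22 called down and 3 up. ATF3 stood at 5844, 5740 and 5446 in controls and at 1465, 1539 and 1402 after BRDT transfection (log2 fold change -1.95 ± 0.0679 SE, adjusted p = 1.88e-07). The values of EGR1 were 2483, 1752 and 1987 without and 591, 551 and 539 with BRDT overexpression (log2 fold change -1.87 ± 0.115 SE, adjusted p = 2.77e-06). FOS gave 334, 211 and 257 normalised counts in the control libraries and 107, 98.1 and 127 in the BRDT-OE libraries (log2 fold change -1.25 ± 0.169 SE, adjusted p = 0.000196). These 3 encode transcription factors that are induced within minutes of a stimulus. FOSL1 stood at 2005, 2719 and 2527 in controls and at 5625, 6286 and 5580 after BRDT transfection (log2 fold change 1.28 ± 0.108 SE, adjusted p = 1.27e-05). FOSL1 encodes the AP-1 subunit FRA1. MYC gave 1065, 1050 and 931 against 732, 861 and 733 and was not called, its change being under the fold limit (adjusted p = 0.00493).

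Regulators of squamous identity were called up in 5.56% and down in 22.2% of those tested, against 10.5% and 16% of all tested genes. TP63 gave 1675, 1560 and 1344 normalised counts in the control libraries and 1405, 1377 and 1458 in the BRDT-OE libraries. Its log2 fold change was -0.11 with a 95% interval of -0.30 to 0.09 (adjusted p = 0.333), and the counts do not separate the TP63 isoforms. Of 18 tested lineage transcription factors, 4 were called down, among them ELF3 (-2.04), KLF4 (-0.83) and OVOL1 (-0.57), which are linked to epithelial differentiation, and BNC1, found in basal keratinocytes, was called up (0.67). The OVOL1 call was lost without BRDT-OE library 2 (-0.43) and with the length and GC dependence removed (-0.40). The values of ELF3 were 1207, 1006 and 1091 without and 345, 194 and 284 with BRDT overexpression (log2 fold change -2.04 ± 0.174 SE, adjusted p = 1.37e-05). Of 13 squamous markers used to check the cell type, 12 were tested, and SOX2 was below the filter at 5.66 to 9.94 normalised counts. KRT5 gave 11115, 8917 and 10747 normalised counts in the control libraries and 12555, 12956 and 13553 in the BRDT-OE libraries (log2 fold change 0.35 ± 0.0908 SE, adjusted p = 0.00867). KRT5 was abundant in all 6 libraries, its 2 groups did not overlap, and its change was under the fold limit, which it passed with the length and GC dependence removed (0.54). KRT14 stood at 139, 112 and 167 in controls and at 189, 220 and 197 after BRDT transfection (log2 fold change 0.55 ± 0.149 SE, adjusted p = 0.011). The keratin KRT14 pairs with KRT5 in basal cells, and its call was lost without control library 2 (0.40), without BRDT-OE library 2 (0.49) and with equal upper quartiles (0.47). The atypical cadherin FAT2 was not called. The values of FAT2 were 2461, 2141 and 1375 without and 1445, 1585 and 1441 with BRDT overexpression (log2 fold change -0.38 ± 0.171 SE, adjusted p = 0.0881). Control library 3 decided this, since without it the log2 fold change was -0.62 and passed the test. Defining genes of other cell types were at or near 0: PTPRC, LYZ and DCN had no read in any library, the fibroblast list summed to 139 to 154 in control and 73.1 to 90.0 in BRDT-OE libraries, nearly all from COL1A1 (-0.90), and the immune list was carried by CD68. The part of COL1A1-expressing cells in any result was not tested.

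Adhesion and matrix genes had calls in both directions. Of 25 basal keratins and adhesion genes 5 were called up and 2 down. LAMA3 gave 1513, 1604 and 1164 normalised counts in the control libraries and 2469, 2813 and 2548 in the BRDT-OE libraries (log2 fold change 0.88 ± 0.113 SE, adjusted p = 0.000141). ITGA6 stood at 3186, 3433 and 2839 in controls and at 5286, 5866 and 5561 after BRDT transfection (log2 fold change 0.82 ± 0.0826 SE, adjusted p = 3.16e-05). Both take part in the anchorage of basal cells to their basement membrane. The values of DSG3 were 1146, 1083 and 926 without and 490, 488 and 510 with BRDT overexpression (log2 fold change -1.08 ± 0.0907 SE, adjusted p = 1.28e-05). Another desmosomal cadherin, DSC3, was called up, at 0.66, whereas KRT15 was called down, at -1.21. Among 55 tested collagens, laminins, integrins and matrix metalloproteinases, 9 were called up and 17 down. MMP1 gave 9.94, 25.5 and 24.1 normalised counts in the control libraries and 77.4, 101 and 105 in the BRDT-OE libraries (log2 fold change 2.29 ± 0.319 SE, adjusted p = 0.00023). MMP1 and MMP3 (1.96) are secreted proteases with adjacent genes. Other metalloproteinases fell, among them MMP28 (-2.31), MMP11 (-2.27) and MMP19 (-2.98). Of 20 tested mesenchymal and migration genes, 6 were called up and none down. THBS1 stood at 33789, 40847 and 29068 in controls and at 84773, 94213 and 79549 after BRDT transfection (log2 fold change 1.33 ± 0.125 SE, adjusted p = 2.32e-05). The values of CD44 were 10016, 10877 and 10164 without and 18634, 20763 and 18626 with BRDT overexpression (log2 fold change 0.90 ± 0.0763 SE, adjusted p = 1.30e-05). FN1 gave 1880, 2121 and 1219 normalised counts in the control libraries and 3282, 2988 and 2822 in the BRDT-OE libraries (log2 fold change 0.84 ± 0.167 SE, adjusted p = 0.00202). THBS1 and FN1 encode matrix glycoproteins, and CD44 encodes a hyaluronan receptor. VIM, which encodes vimentin, stood at -0.26 and was not called. TNC and AXL (0.52) were among the other rises, AXL losing its call with equal upper quartiles (0.43), with TMM factors or edgeR (both 0.49) and without control library 1 (0.49) or 3 (0.48). In the cornified list 20 of 31 genes were below the filter, and of the 11 tested FLG rose while 3 fell, LCN2 (-2.32) and CSTA (-1.02) among them.

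A list of 4 genes that had been picked in this series for following BRDT dose was called up in full, and as that choice was made with these libraries in view the count is not independent evidence of direction. PTHLH stood at 386, 406 and 410 in controls and at 1103, 1406 and 1042 after BRDT transfection (log2 fold change 1.55 ± 0.109 SE, adjusted p = 5.25e-06). PTHLH encodes the parathyroid hormone-related protein, a secreted hormone that squamous tumours are known to release. The values of TMEM158 were 105, 96.2 and 99.8 without and 254, 277 and 285 with BRDT overexpression (log2 fold change 1.43 ± 0.109 SE, adjusted p = 7.60e-06). TNC gave 258, 269 and 212 normalised counts in the control libraries and 515, 519 and 506 in the BRDT-OE libraries (log2 fold change 1.06 ± 0.105 SE, adjusted p = 2.94e-05). IL6R stood at 169, 177 and 170 in controls and at 306, 360 and 318 after BRDT transfection (log2 fold change 0.92 ± 0.102 SE, adjusted p = 5.70e-05). TMEM158 is a membrane protein induced by RAS, TNC is the matrix protein tenascin-C and IL6R is the ligand-binding chain of the IL6 receptor. All 4 remained called in each analysis that left out 1 library.

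**Figure D4:**
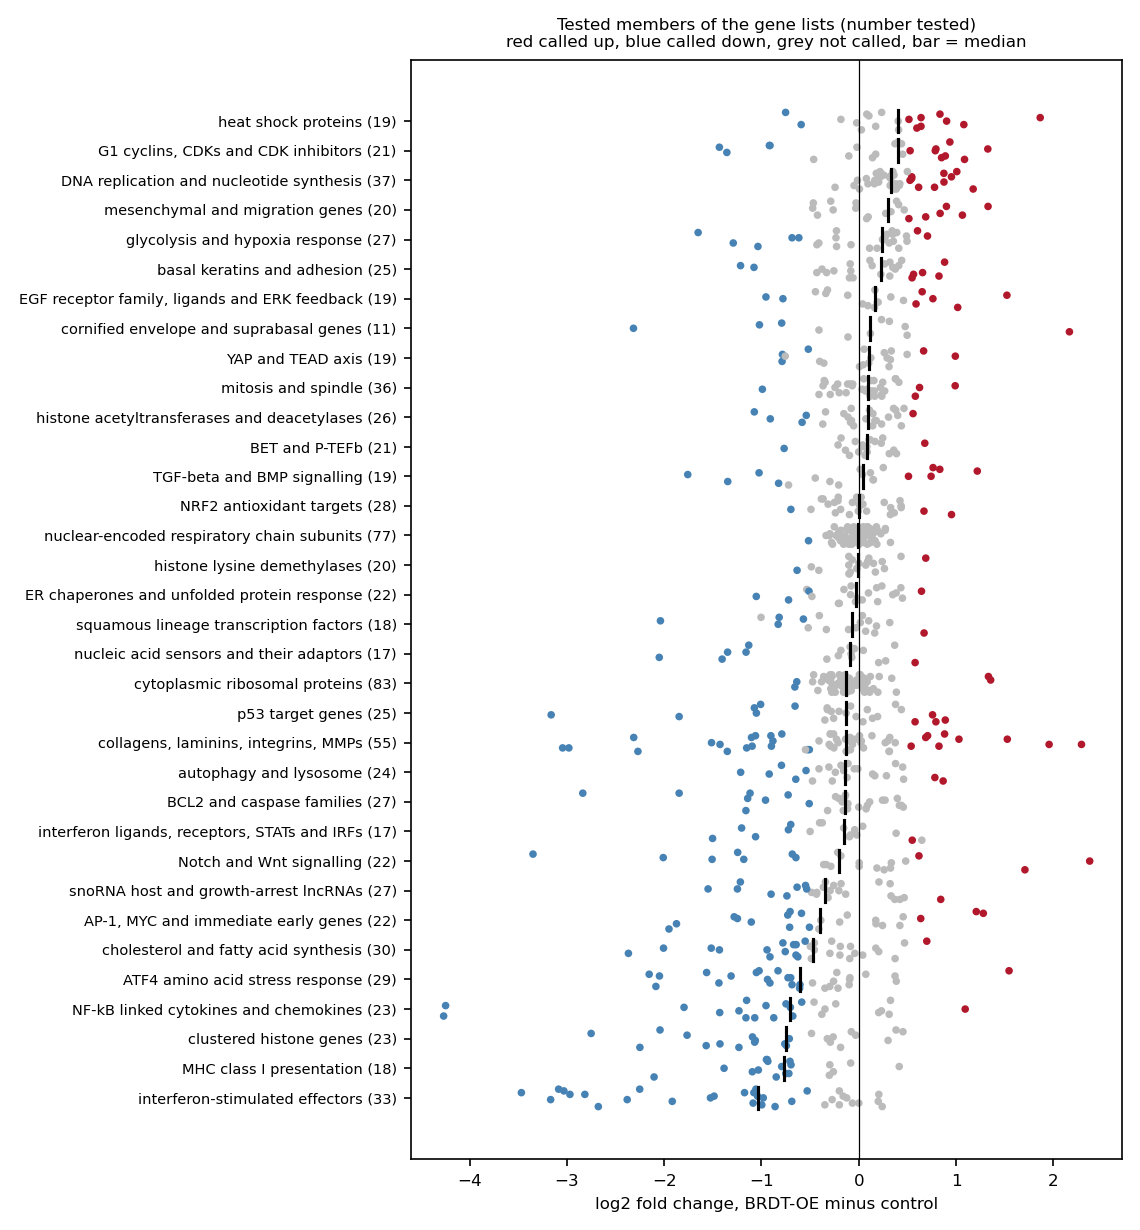
Log2 fold change (BRDT-OE over control) of every tested member of the gene lists with at least 10 tested members, 1 point per gene (red up, blue down, grey not called), with a bar at each list's median. Interferon effectors, MHC class I genes and histone genes lie mostly below 0, and genes of DNA replication and heat shock proteins lie mostly above it.

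Growth factor and developmental pathways showed rises and falls side by side. In the EGF receptor family with its ligands and feedback genes, 5 of 19 were called up and 2 down. The values of AREG were 482, 602 and 574 without and 1060, 1154 and 1130 with BRDT overexpression (log2 fold change 1.02 ± 0.0943 SE, adjusted p = 2.09e-05). DUSP4 gave 657, 776 and 628 normalised counts in the control libraries and 1955, 2042 and 1907 in the BRDT-OE libraries (log2 fold change 1.52 ± 0.0884 SE, adjusted p = 2.16e-06). AREG is a ligand of the receptor and DUSP4 a phosphatase that turns ERK off. TGFA, another ligand, rose by 0.76 on the log2 scale, and ERBB3 fell by 0.78. In the TGF-beta and BMP list 5 of 19 genes rose and 4 fell, and the BMP target genes ID1 (-1.76) and SMAD6 (-1.02) were among the falls while the BMP antagonist NOG (1.22) rose. The Notch and Wnt list had 3 of 22 called up and 7 down. NOTCH3 stood at 697, 458 and 424 in controls and at 137, 103 and 145 after BRDT transfection (log2 fold change -2.01 ± 0.189 SE, adjusted p = 2.25e-05). The values of HES1 were 730, 673 and 624 without and 301, 263 and 290 with BRDT overexpression (log2 fold change -1.24 ± 0.0943 SE, adjusted p = 7.47e-06). DKK1 gave 1194, 1504 and 1480 normalised counts in the control libraries and 4727, 4738 and 4137 in the BRDT-OE libraries (log2 fold change 1.71 ± 0.0988 SE, adjusted p = 2.15e-06). NOTCH3 is a Notch receptor, HES1 a Notch target and DKK1 a secreted Wnt inhibitor. Of 19 genes of the YAP and TEAD axis, CTGF (0.99) and WWTR1 (0.67) were called up and TEAD3 (-0.79), TEAD2 (-0.78) and ANKRD1 (-0.52) down, the last not without control library 2 (-0.45) or 3 (-0.50), without BRDT-OE library 2 (-0.49) or with the length and GC dependence removed (-0.41).

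Calls among genes of the G1 phase and of DNA replication were mostly upward, while most mitotic genes were not called. In the G1 list 8 of 21 tested genes were called up and 4 down. CCND1 stood at 3946, 4551 and 3837 in controls and at 8467, 8862 and 8802 after BRDT transfection (log2 fold change 1.09 ± 0.0783 SE, adjusted p = 5.70e-06). The values of CCNE2 were 233, 251 and 223 without and 617, 562 and 596 with BRDT overexpression (log2 fold change 1.33 ± 0.0897 SE, adjusted p = 4.36e-06). CDKN1B gave 1096, 1082 and 1062 normalised counts in the control libraries and 589, 541 and 584 in the BRDT-OE libraries (log2 fold change -0.92 ± 0.073 SE, adjusted p = 9.67e-06). CCND1 and CCNE2 encode the cyclins that drive entry into S phase, and CDKN1B encodes the inhibitor p27. CDKN2B (-1.36) and CDKN2D (-1.43), which encode inhibitors of CDK4 and CDK6, fell too, and CDK6 itself rose by 0.79. Of 37 genes of DNA replication and nucleotide synthesis, 10 were called up and none down (median log2 fold change 0.34), with 9 to 13 called up when any library was left out and 7 with equal upper quartiles. RRM2 stood at 3052, 3634 and 3790 in controls and at 7866, 8351 and 7377 after BRDT transfection (log2 fold change 1.18 ± 0.0908 SE, adjusted p = 8.20e-06). The values of UHRF1 were 660, 827 and 595 without and 1423, 1393 and 1336 with BRDT overexpression (log2 fold change 1.01 ± 0.11 SE, adjusted p = 5.40e-05). MCM10 gave 1243, 1653 and 1278 normalised counts in the control libraries and 2656, 2749 and 2610 in the BRDT-OE libraries (log2 fold change 0.95 ± 0.103 SE, adjusted p = 4.91e-05). RRM2 is a subunit of ribonucleotide reductase, UHRF1 maintains DNA methylation and MCM10 helps to start replication forks. Of 36 mitotic genes 3 rose, including FOXM1 (0.62) and MYBL2 (0.99), and 1 fell. The clustered histone genes went the other way. Of 73 listed, 23 were tested, 13 were called down and none up (median log2 fold change -0.74). HIST1H1C stood at 1690, 1353 and 1773 in controls and at 621, 688 and 731 after BRDT transfection (log2 fold change -1.23 ± 0.108 SE, adjusted p = 1.61e-05). The values of HIST2H2BE were 237, 215 and 205 without and 37.8, 54.1 and 45 with BRDT overexpression (log2 fold change -2.25 ± 0.156 SE, adjusted p = 4.84e-06). Most transcripts of these genes lack a poly(A) tail, and the kit selects poly(A) RNA, so that the counts cover their polyadenylated forms, and near-identical copies can share reads.

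Among stress programmes, calls of the ATF4 response were mostly downward and those of heat shock proteins mostly upward. Of 29 genes of the ATF4 amino acid response, 16 were called down and 1 up (median log2 fold change -0.61). DDIT3 gave 931, 930 and 1071 normalised counts in the control libraries and 223, 246 and 219 in the BRDT-OE libraries (log2 fold change -2.08 ± 0.0925 SE, adjusted p = 5.64e-07). DDIT4 stood at 11461, 9721 and 11426 in controls and at 2555, 2298 and 2458 after BRDT transfection (log2 fold change -2.15 ± 0.0827 SE, adjusted p = 2.55e-07). The values of ASNS were 5393, 5099 and 5825 without and 2109, 2138 and 2319 with BRDT overexpression (log2 fold change -1.31 ± 0.0745 SE, adjusted p = 1.91e-06). DDIT3 encodes CHOP, DDIT4 an inhibitor of mTORC1 and ASNS asparagine synthetase. ATF5 gave 81.3, 124 and 118 normalised counts in the control libraries and 283, 306 and 347 in the BRDT-OE libraries (log2 fold change 1.54 ± 0.163 SE, adjusted p = 4.20e-05). ATF4 itself stood at -0.48 (adjusted p = 0.000535) and did not reach the fold limit, which it passed without control library 1 (-0.50) or 2 (-0.52) and with equal upper quartiles (-0.56). Heat shock proteins were called up in 8 of 19 and down in 2. HSPA8 led them, followed by DNAJA1 (1.08), HSP90AA1 (0.90) and HSPH1 (0.83), whereas the small heat shock proteins HSPB8 (-0.75) and HSPB1 (-0.59) fell, HSPB1 not with the length and GC dependence removed (-0.26). The heat-inducible HSPA1A gave a log2 fold change of 0.10 and was not called. Chaperones of the endoplasmic reticulum were called up in 1 of 22 and down in 3, the latter being HERPUD1 (-1.05), DNAJB9 (-0.72) and HSPA5 (-0.51), the last not without control library 2 (-0.46) or BRDT-OE library 1 (-0.49).

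Cholesterol and fatty acid synthesis had 13 of 30 genes called down and 1 up (median log2 fold change -0.47). SCD stood at 24598, 22526 and 19556 in controls and at 4520, 4138 and 4217 after BRDT transfection (log2 fold change -2.37 ± 0.0901 SE, adjusted p = 2.55e-07). The values of SREBF1 were 3364, 3151 and 3172 without and 924, 708 and 790 with BRDT overexpression (log2 fold change -2.01 ± 0.095 SE, adjusted p = 8.72e-07). INSIG1 gave 3596, 3366 and 3412 normalised counts in the control libraries and 1203, 1309 and 1119 in the BRDT-OE libraries (log2 fold change -1.52 ± 0.0757 SE, adjusted p = 1.13e-06). SCD desaturates fatty acids, SREBF1 encodes the factor that drives lipogenic genes, and INSIG1 holds that factor back. Of 27 genes of glycolysis and hypoxia, PKM (0.71) and LDHA (0.60) rose and 5 fell, including CA9 (-1.65) and VEGFA (-0.69). In the list of NRF2 antioxidant targets 2 of 28 genes were called up, GCLM (0.95) and NQO1 (0.67), and ABCC3 was called down (-0.70). Among 25 tested p53 targets 4 rose and 6 fell, GDF15 and BBC3 (-1.85) being the largest falls, while CDKN1A stood at 0.14 and was not called. In the apoptosis list 8 of 27 genes were called down and none up, BBC3 being the largest fall among those with at least 50 normalised counts and the BH3-only gene PMAIP1 standing at -1.12. The autophagy and lysosome list had 2 of 24 called up and 5 down, GABARAPL1 (-1.21) and TFEB (-0.92) being among the falls.

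Genes of the germ line, where BRDT normally works, were mostly not expressed at a testable level. Of 48 such genes, 43 were below the filter, including the synaptonemal complex genes SYCP1, SYCP2 and SYCP3 and the protamine genes PRM1 and PRM2. Of the 5 tested, MAGEB2 was called up. MAGEB2 stood at 67.8, 55.6 and 77.8 in controls and at 92.9, 107 and 98.4 after BRDT transfection (log2 fold change 0.57 ± 0.161 SE, adjusted p = 0.0132). This call was lost without control library 2 (0.44), without BRDT-OE library 2 (0.52) and with equal upper quartiles (0.49). Chromatin enzymes changed in few members. Of 26 acetyltransferases and deacetylases 1 was called up, EP300 (0.56), whose call was lost in every analysis that left out 1 BRDT-OE library and in those without control library 1 (0.62) or 3 (0.29), with equal upper quartiles (0.48), with edgeR (0.48) or DESeq2 (0.50) and with the length and GC dependence removed (0.48), and 4 were called down, HDAC5 (-1.07), HDAC6 (-0.91), HDAC10 (-0.54) and HDAC11 (-0.58). HDAC10 was not called without control library 1 (-0.44), nor HDAC11 without control library 3 (-0.45), nor either of them with the length and GC dependence removed (-0.21 and -0.37). Of 20 histone lysine demethylases KDM8 was called up (0.69) and KDM7A down (-0.63), the latter losing its call without control library 1 (-0.50) or BRDT-OE library 3 (-0.54). Housekeeping groups were close to the median of all genes. Cytoplasmic ribosomal protein genes had 2 of 83 called up and 2 down (median log2 fold change -0.13), RPS26 (1.36) and RPS10 (1.33) being the rises, and both of these have many near-identical pseudogenes that can share their reads. Of the respiratory chain, 1 of 77 subunits, NDUFA7 (-0.52), was called down, though not without control library 3 (-0.35) or BRDT-OE library 3 (-0.48), nor with the length and GC dependence removed (-0.36). Among 27 tested snoRNA hosts and growth-arrest lncRNAs 8 were called down and 1 up, with 6 to 11 down across settings. The values of NEAT1 were 8701, 7016 and 6813 without and 2669, 2472 and 2517 with BRDT overexpression (log2 fold change -1.55 ± 0.0941 SE, adjusted p = 2.74e-06). MALAT1 gave 5138, 4497 and 3612 normalised counts in the control libraries and 1967, 1819 and 1856 in the BRDT-OE libraries (log2 fold change -1.22 ± 0.112 SE, adjusted p = 2.03e-05). GAS5 stood at 5652, 4369 and 6500 in controls and at 2917, 2977 and 2836 after BRDT transfection (log2 fold change -0.90 ± 0.121 SE, adjusted p = 0.000183). NEAT1 builds paraspeckles, MALAT1 lies in nuclear speckles and GAS5 hosts snoRNAs. DANCR was the rise (0.84).

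To ask whether raising BRDT here mirrored lowering it elsewhere, the response was compared with that of KYSE180 cells, in which BRDT was knocked down with siRNA, expressed as control siRNA over BRDT siRNA so that both effects point to more BRDT. The experiments differ in cell line, in dose and in the method of transfection, so these cannot be told apart as sources of a difference, and each table was normalised separately, so that only effects within a table were set against each other. Of 11981 genes tested in both, the effect of overexpression was higher for 3446 (28.8%) and lower for 3609 (30.1%) at an adjusted p below 0.05 of the difference (limma). In KYSE180 siBRDT library 1 more genes had a read (18972) than in the other two (17321 and 17778), and without it 3375 were higher and 3496 lower. In KYSE180 cells 1704 genes were called up with more BRDT (14.2%) and 1656 down (13.8%). Genes called up in both numbered 162, which is 13.0% of the 1248 called up by overexpression and 9.51% of the KYSE180 rises. Genes called down in both numbered 298, 15.8% of the 1891 falls and 18% of those in KYSE180. A further 281 genes were up by overexpression and down in KYSE180 (22.5% of the overexpression rises). The reverse held for 376 (19.9% of the overexpression falls). The TE6 knockdown, with 2 libraries per group, was set against the overexpression in the same way over 11822 genes, of which 2314 were called up with more BRDT in TE6 (19.6%) and 1869 down (15.8%). Here 246 genes were up in both (20.4% of the overexpression rises and 10.6% of the TE6 rises) and 402 were down in both (22.4% and 21.5% of the falls). Another 188 were up by overexpression and down in TE6 (15.6% of the overexpression rises). For 192 it was the reverse (10.7% of the overexpression falls). Opposite calls thus outnumbered shared ones for KYSE180 and shared calls outnumbered opposite ones for TE6, and both overlaps use the same 6 overexpression libraries. The shared part of the overexpression rises was close to the share of all genes called up with more BRDT in the other line. It was 13.0% against 14.2% for KYSE180 and 20.4% against 19.6% for TE6. For the falls it was 15.8% against 13.8% for KYSE180 and 22.4% against 15.8% for TE6. Opposite calls among the overexpression rises made up 22.5% against 13.8% of all genes in KYSE180, and 15.6% against 15.8% in TE6. Among the overexpression falls they made up 19.9% against 14.2% of all genes in KYSE180, and 10.7% against 19.6% in TE6. In TE6 siBRDT library 1 many more genes had a read (20995) than in library 2 (16817). Without it, in an analysis added after the data had been seen that takes the lone siBRDT library to vary like the other groups, 255 were up in both, 353 down in both, and 191 and 175 opposite.

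PTHLH, TMEM158, TNC and REEP6 were among the genes picked for a call in the same direction in both experiments. Their shared direction was thus fixed by the choice and is no separate support. PTHLH rose with more BRDT in both cell lines, and the difference between its effects did not pass the test. Its log2 effect was 1.55 in KYSE150 and 1.71 in KYSE180, with a difference of -0.17 ± 0.128 (SE, adjusted p = 0.282). The difference passed the test without BRDT-OE library 2 (-0.30, adjusted p = 0.0182). TMEM158 gave 1.43 and 1.75, a difference of -0.32 ± 0.183 (adjusted p = 0.152), which passed without KYSE180 siBRDT library 2 (-0.46, adjusted p = 0.0257). TNC rose in both and rose less on overexpression, at 1.06 against 2.32 (difference -1.26 ± 0.157, adjusted p = 7.36e-06). The FAT2 effects were -0.38 and 1.71, and for KRT14 they were 0.55 and 1.14, with differences of -2.09 (adjusted p = 1.94e-06) and -0.60 (adjusted p = 0.00600). REEP6 fell in both, with a difference that did not pass the test (-0.24 ± 0.16, adjusted p = 0.212). With TE6 in place of KYSE180 the REEP6 difference passed (-0.58, adjusted p = 0.0352), though not without TE6 siBRDT library 1 (-0.54, adjusted p = 0.0714).

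Several of the lists that moved most on overexpression had other medians in KYSE180. Interferon effectors had medians of -1.02 and -0.02, and the effect was lower in 23 of 32 genes. For IFIT1 the effects were -3.47 and -0.48 (difference -2.99 ± 0.224, adjusted p = 4.68e-08), while against the TE6 knockdown the difference was -0.40 (adjusted p = 0.211), and -0.31 (adjusted p = 0.399) without TE6 siBRDT library 1. MHC class I genes had medians of -0.77 and 0.34 (lower in 13 of 18), and cholesterol and fatty acid genes -0.47 and 0.50 (lower in 25 of 30). Heat shock proteins had medians of 0.41 and -0.21 (higher in 15 of 19) and replication genes 0.34 and -0.02 (higher in 19 of 37). The ATF4 list was below 0 in both, at -0.61 and -0.26, and histone genes were as well, at -0.49 and -1.31 over 17 genes. These counts are read against the 28.8% and 30.1% of all genes.

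**Figure D5:**
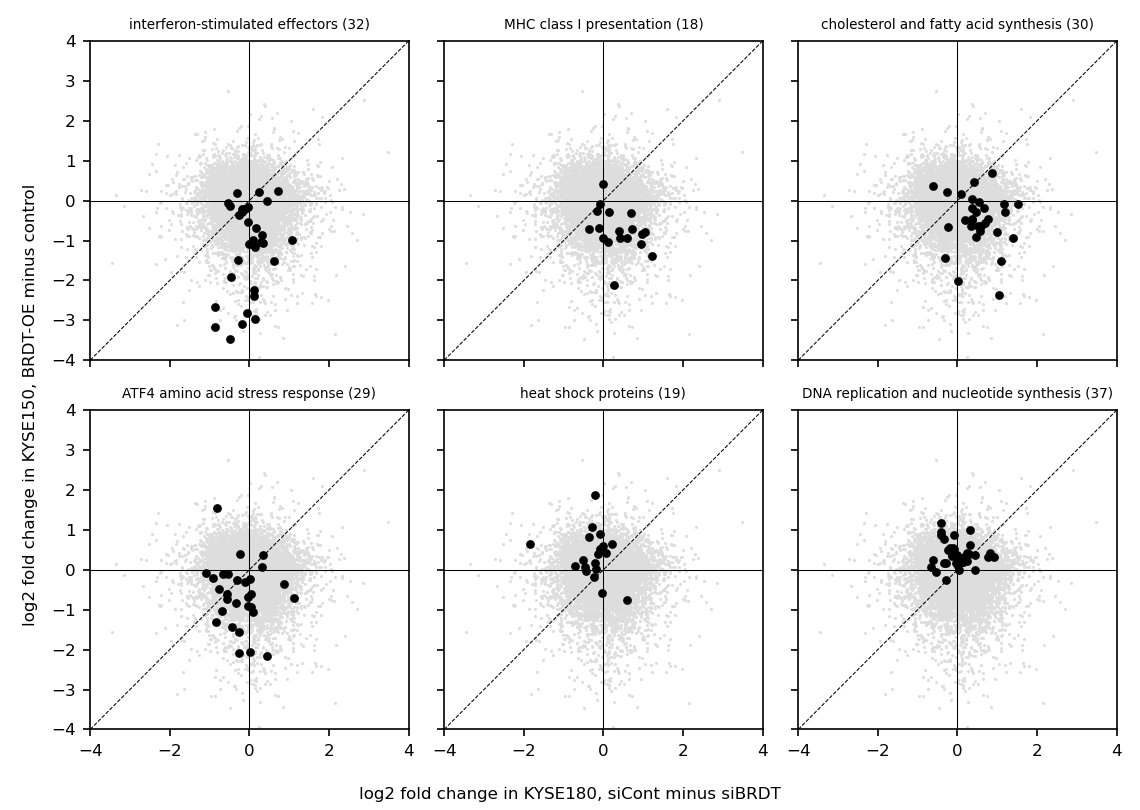
Log2 effect of overexpression in KYSE150 (y axis, BRDT-OE over control) against that of control siRNA over BRDT siRNA in KYSE180 (x axis) in 6 panels, 1 per gene list, with list members in black, all genes in grey and a dashed line where both effects are equal. In all, 4 genes fall outside the drawn range. Interferon effectors and MHC class I genes lie mostly below the horizontal zero line and spread to both sides of the vertical one.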

How the data were processed

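RNA was extracted with QIAzol and sequenced from TruSeq libraries without strand information. Per the submitters' processing notes the tools were STAR 2.6.0, HTSeq 0.11.2 and DESeq2 1.24.0 with the genome build hg38; the annotation and the strand setting of the counting are not given in the sources used here. The deposited values are a read signal, counts that the authors divided by 1 size factor per library; whole reads were recovered from all values (100%), and a gene without reads may still have up to 3 (0.155 to 0.26 RPM). In the overexpression table, genes with a mean of at least 10 were tested on log2(value + 1) with limma 3.58.1 (R 4.3.3, empirical Bayes with trend, Benjamini-Hochberg adjustment), with BRDT-OE and control as the only groups and no covariate. Simulated data with known changes were used to test the code. The named genes were 8 preset genes, the 12 largest rises and 12 largest falls with a mean of at least 100, up to 4 called members per direction of each list with a mean of at least 50, and in the KYSE180 comparison 6 genes per direction called in both; genes beyond this rule were named after their values were seen, and some genes are not reported here. The overexpression experiment, its gene lists and tests were chosen with earlier results of these data known, and no list was tested as a set. The 18 alternatives covered pseudocount, filter, scaling, replicate block, edgeR 4.0.16 and DESeq2 1.42.0 on recovered reads, the fold limit, removal of a spline in length and GC content, and leaving out each library. Gene models were from GENCODE 44 (92.7% of symbols matched) and promoters from RefSeq. Genes that share sequence or overlap on either strand may share reads, and confounding by batch could not be examined because the labels give none.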

Additional observations from a re-analysis of the deposited data

Results flagged for a closer look

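Several genes named in the comparison with KYSE180 had effects that differed between the 2 experiments by the test of the difference itself (limma, adjusted over 11981 genes). Values are the log2 effect of overexpression in KYSE150 minus that of control siRNA over BRDT siRNA in KYSE180, with 3 libraries per group in each. BRDT itself differed by 7.85. IFIT1 differed by -2.99, and against TE6 the difference was -0.40 and did not pass the test (adjusted p = 0.211). GDF15, called down in both, differed by -2.19. FAT2 differed by -2.09, TP63 by -0.69 and KRT14 by -0.60, each with the higher effect in KYSE180. TNC, called up in both, differed by -1.26. Among further genes called down in both, ZSCAN31 differed by -0.84, HIST2H2BE by -0.74 and VAV3 by -0.40. In TE6 cells VAV3 was called up with more BRDT (0.82), while HIST2H2BE (0.11) and ZSCAN31 (-0.39) were not called. The VAV3 difference lost its call without control library 1 (-0.31), BRDT-OE library 1 (-0.38), KYSE180 siCont library 2 (-0.34) or KYSE180 siBRDT library 1 (-0.36). Among genes called up in both, DCBLD2 differed by 0.64 (with TE6 in place of KYSE180 and without TE6 siBRDT library 1 it was 0.39 and did not pass), AREG by -0.43 and ADAMTS1 by 0.36. The ADAMTS1 difference lost its call in 7 of the 12 analyses that left out 1 library (0.27 to 0.36) and with equal upper quartiles (0.33). Groups of 3 libraries are too small for a check of single outlying values.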

How the results depend on the processing

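Most of the summary counts stayed within 1.5 times of their value under the alternatives. The exceptions were the fold limit itself, with 3326 genes up and 3195 down without any limit and 227 up and 860 down at a limit of 1. Leaving out 1 library gave 1216 to 1558 genes up and 1786 to 2098 down, and in the KYSE180 comparison 3191 to 3633 higher and 3328 to 3785 lower. edgeR on recovered reads called 1230 up and 2185 down, and DESeq2 1234 and 2016. A fit with replicate number as block called 1358 genes up and 2075 down, and in the comparison 3628 were higher and 3756 lower; same-numbered libraries deviated together by correlations of only 0.015, 0.098 and 0.037, so the numbers were not taken as pairs, although every BRDT-OE library correlated best with the control of its own number. Of 256 genes chosen for naming 230 were called, 22 of which lost the call under an alternative other than a stricter fold limit, and none of which reversed. Reversals were seen in values that had not passed the test and in the AREG difference, which had. Over the analyses that left out 1 library, the log2 fold change of KRT19 ranged from -0.51 to 0.068 and that of KRT18 from -0.14 to 0.083, while the BRD3 difference ranged from -0.23 to 0.051. Once the dependence on length and GC was removed, with or without the block, KRT19 was at 0.12 and KRT18 at 0.15. The AREG difference, which had passed, was 1.27 with TE6 in place of KYSE180 and 1.41 also without TE6 siBRDT library 1. The cause was not tested in any of these. Depth limits genes near the floor of 3 reads, and 3 libraries per group limit the precision throughout.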

Other observations

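Families outside the lists were looked at after their values had been seen, so the following counts are descriptions. Of 16 tested genes for actins, actinins, filamins, tropomyosins, calponins and non-muscle myosins, 8 were called up and 2 down (median log2 fold change 0.48). The values of ACTB were 47400, 53771 and 56275 without and 132630, 130210 and 125430 with BRDT overexpression (log2 fold change 1.31 ± 0.0958 SE, adjusted p = 6.30e-06). MYH9 stood at 1.06 and FLNA at 0.96, which with ACTG1 at 1.88 are among the most abundant structural transcripts of a cell. MYH14 (-1.80) and the smooth muscle actin ACTA2 (-1.64) were the 2 called down. Of 12 tubulin genes 6 were called up and none down (median 0.63), led by TUBA1C (0.97) and TUBB4B (0.93). Splicing factors of the SR and hnRNP families had 7 of 31 called up and none down (median 0.30).

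Claudins of the tight junction had 3 of 7 tested genes called down and none up. CLDN4 gave 12842, 11483 and 12797 normalised counts in the control libraries and 6001, 5550 and 5650 in the BRDT-OE libraries (log2 fold change -1.11 ± 0.0736 SE, adjusted p = 4.11e-06). Clade B serpins divided, 3 of 7 being called up and 2 down. Beside SERPINB2, SERPINB8 rose (1.26), whereas SERPINB13 (-2.30) and SERPINB1 (-1.53) fell.

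Some of the steepest changes lay in genes below the mean of 100 normalised counts used for naming, and they rest on few reads. The kallikrein pseudogene KLKP1 gave 91.2, 118 and 104 against 0, 0.846 and 0 in control and BRDT-OE libraries, with 1 read in all after BRDT transfection. TNF gave 44.3, 50.9 and 47.1 against 2.58, 0.846 and 1.41, and the T cell chemokine CCL5 gave 186, 132 and 139 against 11.2, 4.23 and 7.03. Among rises, the interleukin-1 decoy receptor IL1R2 gave 12.6, 13.2 and 3.29 against 77.4, 92.2 and 87.2, and the receptor of gastrin-releasing peptide, GRPR, gave 3.61, 3.77 and 2.19 against 24.1, 28.8 and 32.3. None of these genes had overlapping groups, which was also true of 60.2% of all tested genes and of 3348 of the 3386 called. They were picked after their values were seen.

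By gene type, 47 of 546 tested lncRNAs were called up and 191 down (35% down, median log2 fold change -0.38), compared with 10.6% up and 14.8% down among 11656 protein-coding genes. After removal of the dependence on length and GC, 66 lncRNAs were up and 175 down. Of 102 snoRNA genes 21 were up and 3 down, which became 11 and 7 after it; snoRNAs lie within host genes whose reads they share.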
